A study of Mus musculus with 24 samples.

Results

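Toll-like receptors (TLRs) that sense nucleic acids inside endosomes and lysosomes were examined together with the proteins that fold them, carry them, or serve their compartment. The group holds 9 genes of the 23930 measured: the receptors Tlr3, Tlr7, Tlr8, Tlr9, and Tlr13, the chaperones Unc93b1 and Cnpy3, and the lysosomal transporters Slc15a3 and Slc15a4. They were chosen by their known function, and each of the 9 passed the filter on low values in both monocyte subsets.

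Endosomal TLRs are made in the endoplasmic reticulum and must leave it to work. Cnpy3 assists the chaperone Hsp90b1 in folding most TLRs, Unc93b1 binds the nucleic acid-sensing receptors and escorts them to endolysosomes, and proteases there trim them into their active form. Monocytes and macrophages carry several of these receptors, and Tlr7, which responds to single-stranded RNA and guanosine, is the receptor that the study set against the loss of the lysosomal nucleoside transporter Slc29a3.

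RNA of sorted splenic monocytes was measured in 6 groups of 4 libraries, the Ly6C hi and Ly6C low subsets of WT, Slc29a3-/-, and Slc29a3-/- Tlr7-/- mice on a C57BL/6 background. The mutants were made with CRISPR: an insertion with a stop codon in Slc29a3, which both mutant groups carry, and a short deletion in Tlr7. WT mice were bought, and the age of the mice used for RNA was not given in the sources used here. Cells were CD11b+ NK1.1- Ly6G- after bead depletion of other lineages, and the labels call them macrophages where the study calls them monocytes. Ly6C hi cells were also gated as Fcgr4 low, and Ly6C low cells as Fcgr4 high. No label states that replicates are separate mice, so P values measure the spread between these libraries, which may be technical.

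Levels were given as RPM, the reads of 1 amplicon per gene scaled to a library total of 1000000, from libraries of 12311028 to 14572242 reads as inferred from the step between low values. A value of 0 therefore allowed up to 0.206 to 0.244 RPM, by counting error only, and the lowest member value, 1.42 RPM of Tlr3, lay above that. WT replicates 1 to 3 carried barcodes 11 to 16 and 14237183 to 14572242 reads, whereas WT replicate 4 and all mutant libraries carried barcodes 24 to 46 and 12311028 to 13048390 reads, so for WT replicates 1 to 3 barcode range and genotype cannot be told apart. WT replicate 4 was also the only WT library with reads of the Y-linked Ddx3y (97.0 RPM in Ly6C hi and 197 RPM in Ly6C low) and none of Xist, and 3 members are X-linked. Ddx3y was likewise read in Slc29a3-/- replicate 1 and Slc29a3-/- Tlr7-/- replicates 1 to 3 of both subsets, and 3 of these (Ly6C hi replicates 2 and 3 and Ly6C low replicate 2 of Slc29a3-/- Tlr7-/-) held Xist as well, between 109 and 425 RPM. For the members, values without WT replicate 4, or without all libraries with Ddx3y reads, are given where they change a result. The second selection was kept only for Slc29a3-/- against WT within each subset. There it leaves WT replicates 1 to 3 alone as WT, so barcode range and genotype coincide in it. No such values are given for Slc29a3-/- against Slc29a3-/- Tlr7-/-, for Ly6C hi against low, or for differences between subsets.

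Markers of the subsets separated the libraries by their label. The 3 Ly6C hi genes with an amplicon, of 5 listed, summed to between 1143 and 3445 RPM in Ly6C hi libraries and between 5.91 and 254 RPM in Ly6C low libraries. All 8 Ly6C low genes had an amplicon, and their sum was 1427 to 4177 RPM in Ly6C hi and 8386 to 17993 RPM in Ly6C low. Fcgr4 is among the 8 and was part of the sort gate, so its separation is no independent check. Neither mutation could be checked from its own gene, since the places of the 2 amplicons relative to the mutations were not given in the sources used here. Slc29a3 was read at 168, 163, 198, and 225 RPM in WT Ly6C hi libraries, at 167, 173, 162, and 127 RPM in Slc29a3-/-, and at 208, 413, 273, and 194 RPM in Slc29a3-/- Tlr7-/-. Slc29a3 transcripts were thus present in every genotype, and in Ly6C low they ranged from 40.7 to 74.1 RPM. In Ly6C hi, Slc29a3 was lower in Slc29a3-/- than in the double mutant, without overlap (log2 fold change -0.73 ± 0.21, limma adjusted P = 0.023).

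Of the 9 members, 3 lie on the X chromosome, and Tlr8 (chrX:167242696-167264329, minus strand, GRCm38/mm10) and Tlr7 (chrX:167304929-167330558, minus strand) are separated by 40599 bases. Tlr13 (chrX:106143204-106160493, plus strand) is the third. Tlr3 lies at chr8:45395665-45411080, Tlr9 at chr9:106222598-106226883, Unc93b1 at chr19:3935186-3949340, Cnpy3 at chr17:46735705-46752214, Slc15a3 at chr19:10839727-10859362, and Slc15a4 at chr5:127595664-127632897. These are whole-gene positions in GENCODE vM21. Levels are compared between groups and not between genes, because amplicons differ in how well they are amplified.

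RefSeq promoter entries (GRCm38.p6) existed for 6 of the 9 members, and 3 of them, Tlr8, Tlr9, and Cnpy3, had no annotated exon in the 250 bases before the start. These 3, which also fell in Ly6C hi monocytes when Slc29a3-/- was set against Slc29a3-/- Tlr7-/-, are printed because their windows held no exon. They cover chrX:167264330-167264579 (minus strand), chr9:106222348-106222597 (plus strand), and chr17:46752215-46752464 (minus strand), are written 5′ to 3′ along the gene, and carry in capitals the core motif of the myeloid factor PU.1, GAGGAA or its reverse complement.
Tlr8: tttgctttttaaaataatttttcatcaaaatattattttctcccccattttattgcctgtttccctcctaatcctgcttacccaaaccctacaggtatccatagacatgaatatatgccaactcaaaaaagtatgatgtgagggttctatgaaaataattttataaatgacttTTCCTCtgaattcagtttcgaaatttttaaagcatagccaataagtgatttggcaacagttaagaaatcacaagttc
Tlr9: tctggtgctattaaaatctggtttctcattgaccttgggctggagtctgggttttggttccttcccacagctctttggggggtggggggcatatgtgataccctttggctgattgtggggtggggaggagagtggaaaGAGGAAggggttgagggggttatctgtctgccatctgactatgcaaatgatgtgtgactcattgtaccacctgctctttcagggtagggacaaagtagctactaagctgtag
Cnpy3: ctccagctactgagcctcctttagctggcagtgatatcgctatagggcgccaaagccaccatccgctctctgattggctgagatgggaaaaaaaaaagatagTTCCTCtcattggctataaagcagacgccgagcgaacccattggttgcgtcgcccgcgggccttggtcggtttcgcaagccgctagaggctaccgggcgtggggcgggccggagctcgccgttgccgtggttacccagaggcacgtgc

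Each of the 3 held 1 PU.1 core, 77 bases before the start in Tlr8, 112 bases in Tlr9, and 148 bases in Cnpy3. Tlr13, whose window is partly annotated as exon and is not printed, also held 1, 83 bases before the start, and the windows of Tlr3 and Slc15a4 held none. The motif occurred in 23.3% of 32851 promoter windows of the same length on either strand, so 4 of 6 is a description only. An interferon-response-like motif, GAAA followed after 2 bases of any kind by GAAA, found in 2.98% of all windows, was in none of the 6. The E-box CACGTG, in 6.02% of all windows, was found in Cnpy3 only, 7 bases before the start. The CCAAT box, in 33.8% of all windows, was found in Tlr8 once and in Cnpy3 3 times. TATAAA, in 12.4% of all windows, was found in Cnpy3 once and in Tlr8 at a pair of overlapping places, and neither gene's PU.1 core overlapped another motif.

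In Ly6C hi monocytes, most endosomal TLR genes were lower when Slc29a3 alone was lost than when Tlr7 was lost with it. Of the 9 members, 7 fell in Slc29a3-/- when compared with Slc29a3-/- Tlr7-/- (limma on log2(RPM + 1), adjusted P under 0.05) and none was higher, where 20.4% of the 10561 genes tested were called and 10.3% were lower. The 7 were Tlr3, Tlr7, Tlr8, Tlr9, Unc93b1, Cnpy3, and Slc15a3, and the median log2 fold change of the 9 was -0.73, beside -0.12 over all genes. In 5 of the 9 the groups did not overlap, all of them lower, where 11.5% of all genes were lower without overlap. The count fell to 3 with TMM scaling, which moved the median of all genes to 0.01, to 4 with RLE scaling, to 3 when Slc29a3-/- replicate 3 or 4 was left out, and to 4 when Slc29a3-/- replicate 1 or Slc29a3-/- Tlr7-/- replicate 3 was. Tlr7, Tlr8, and Tlr9 kept their call in all 17 alternatives. None of these left out all libraries with Ddx3y reads, which were Slc29a3-/- replicate 1 and Slc29a3-/- Tlr7-/- replicates 1 to 3.

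Against WT, 3 members were lower in Slc29a3-/- Ly6C hi monocytes, Tlr3, Tlr7, and Unc93b1, and none was higher, where 27.9% of all genes were called and 17.8% were lower. Without overlap, 3 members were lower (Tlr3, Tlr8, and Unc93b1), as were 21.8% of all genes. The median of the 9 was -0.42 on the log2 scale, beside -0.14 over all genes. Between Slc29a3-/- Tlr7-/- and WT, limma called none of the 9, where 1.46% of all genes were called, and 3 members had an unadjusted P under 0.05 (Tlr9, Tlr13, and Cnpy3, all with the higher mean in Slc29a3-/- Tlr7-/-). Under the study's thresholds, a fold over 1.5 and an unadjusted P under 0.05, 1 member was called (Tlr13), where 12.6% of all genes were. Without WT replicate 4, limma called 3 members, each above WT in Slc29a3-/- Tlr7-/-: Tlr8 (log2 fold change 0.68, adjusted P = 0.029), Tlr9 (0.76, adjusted P = 0.035), and Tlr13 (1.29, adjusted P = 0.021). These 3 comparisons share groups and are not independent of each other.

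**Figure D1:**
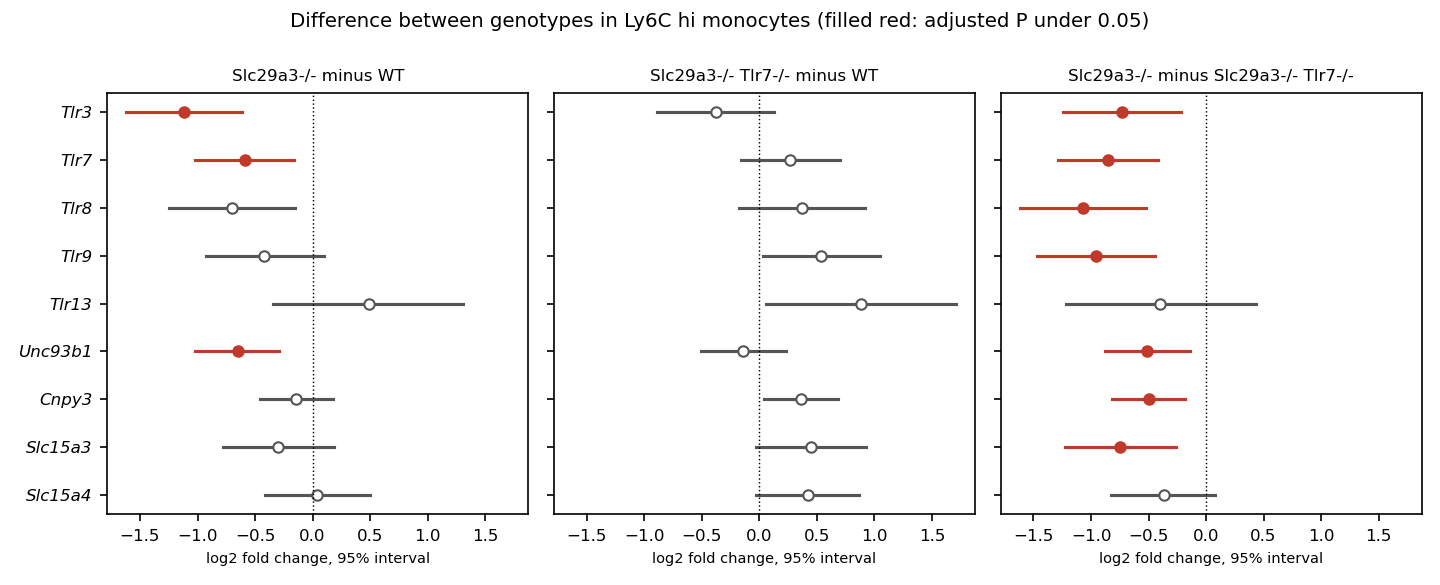
Log2 fold changes of the 9 members between genotypes in Ly6C hi monocytes, with 95% intervals, 1 panel per comparison. Filled red points passed an adjusted P of 0.05, and they are 3, 0, and 7 of 9 from left to right.

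Genes listed as markers of other cells moved with the Ly6C hi groups, and their part in these results was not tested. Whether other cells or the sorted monocytes themselves made these transcripts was not tested either. All 8 neutrophil genes listed (Ltf, Camp, Ngp, Lcn2, Ly6g, Mmp8, Cxcr2, and Cd177) were measured, and their sum was 43503 to 83082 RPM in Slc29a3-/-, 14317 to 21619 RPM in WT, and 6738 to 22125 RPM in Slc29a3-/- Tlr7-/-. Ngp made up most of this sum, with a mean of 38071 of 56518 RPM in Slc29a3-/-. In Slc29a3-/-, 6 of the 8 were higher and 1 was lower than in WT, and 7 were higher and 1 lower than in Slc29a3-/- Tlr7-/-. The lower one was Mmp8, a collagenase of neutrophil granules, at a mean of 129.7 RPM in Slc29a3-/-, 279 RPM in WT, and 274 RPM in Slc29a3-/- Tlr7-/-. The 5 granulocyte-monocyte progenitor genes (Elane, Mpo, Prtn3, Ctsg, and Ms4a3) summed to 854 to 2864 RPM in Slc29a3-/-, 330.4 to 447 RPM in WT, and 350.2 to 925 RPM in Slc29a3-/- Tlr7-/-. Both sums were highest by mean in Slc29a3-/-, where Tlr13 and Slc15a4 were not below WT by mean. Slc29a3-/- replicate 4 had the highest neutrophil sum and the lowest values of Tlr7, Tlr8, Tlr9, Tlr13, Unc93b1, Cnpy3, Slc15a3, and Slc15a4 within its group. Replicate 2 had the next highest neutrophil sum (50108 RPM) and the highest values of Tlr8, Tlr9, Tlr13, Cnpy3, and Slc15a3 within the group. Dendritic cell genes were lowest in Slc29a3-/-. The 7 conventional dendritic cell genes summed to 32.7 to 51.3 RPM in Slc29a3-/-, 102 to 141 RPM in WT, and 111 to 148 RPM in Slc29a3-/- Tlr7-/-, and the 7 plasmacytoid genes to 18.9 to 30.6, 71.7 to 118, and 51.7 to 83.7 RPM. The 6 B cell genes with an amplicon, of 7 listed, summed to 17.8 to 24.4 RPM in Slc29a3-/-, 41.6 to 59.4 RPM in WT, and 28.8 to 51.6 RPM in Slc29a3-/- Tlr7-/-, and T and NK cell genes (6 of 6) to 20.1 to 40.8, 104 to 471, and 7.88 to 596 RPM. No gene of these lists was at 0 in all 4 libraries of a Ly6C hi group. In such bulk samples, fewer cells of a type and less RNA per cell cannot be told apart.

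**Figure D2:**
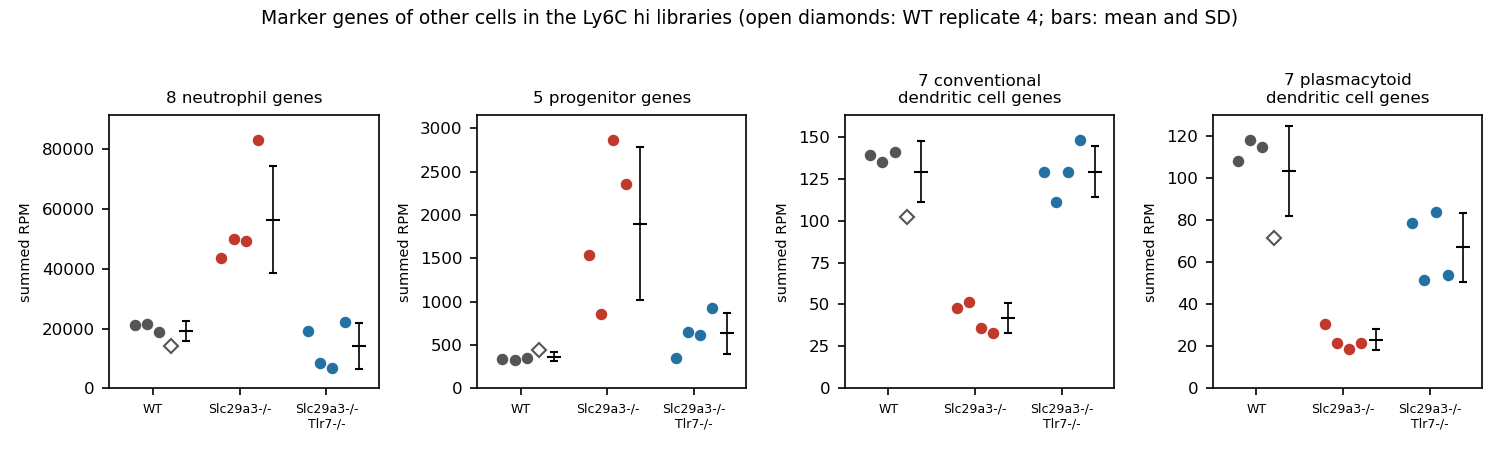
Summed RPM of marker genes of neutrophils, granulocyte-monocyte progenitors, and conventional and plasmacytoid dendritic cells in the 12 Ly6C hi libraries, with the mean and SD of 4 libraries as bars and WT replicate 4 as open diamonds. The Slc29a3-/- libraries are highest in neutrophil genes, at 43503 RPM or more, and lowest in both dendritic cell lists, at 51.3 RPM or less.

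**Figure D3:**
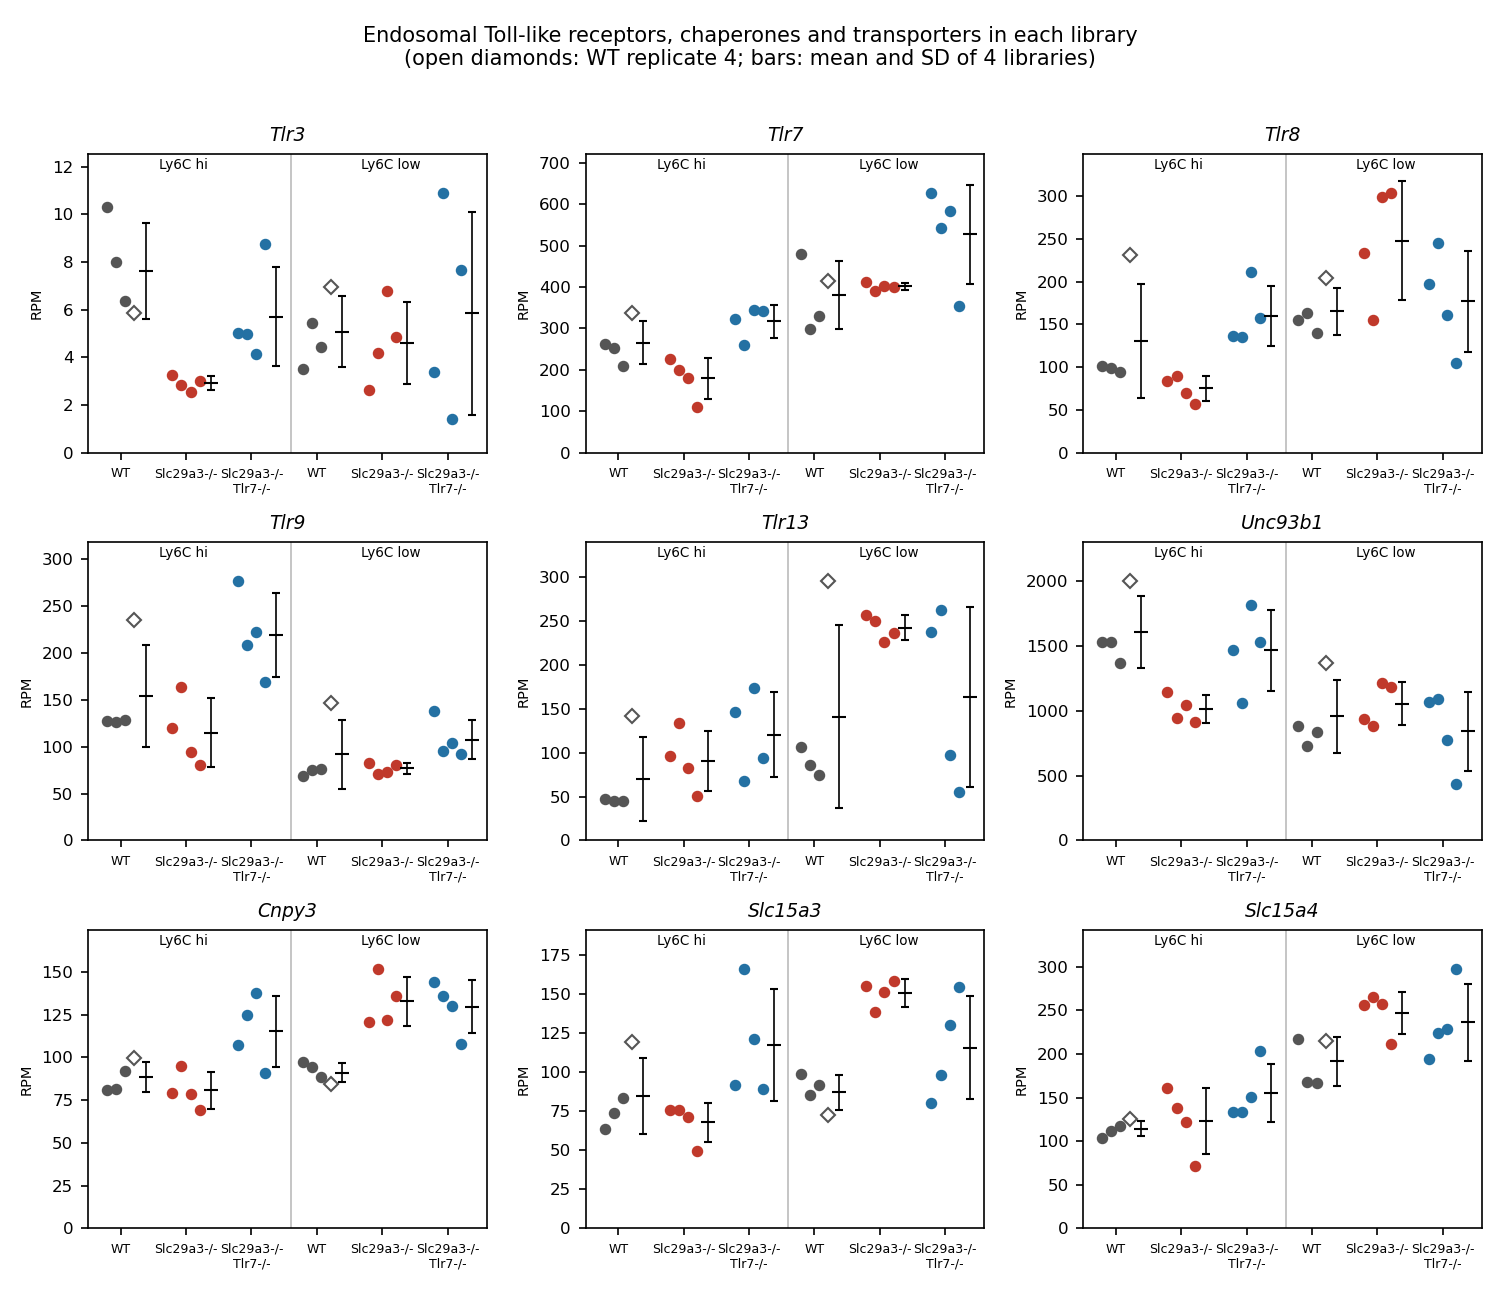
RPM of each member in each of the 24 libraries on linear axes from 0, with the mean and SD of 4 libraries as bars and WT replicate 4 as open diamonds. In Ly6C hi, the Slc29a3-/- points lie below all Slc29a3-/- Tlr7-/- points for Tlr3, Tlr7, Tlr8, Tlr9, and Slc15a3, and WT replicate 4 stands above the other WT points for Tlr8, Tlr9, and Tlr13 in both subsets.

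Tlr3, the receptor for double-stranded RNA, fell in Slc29a3-/- Ly6C hi monocytes. It was read at 10.3, 7.98, 6.37, and 5.85 RPM in WT, at 3.26, 2.85, 2.54, and 3.02 RPM in Slc29a3-/-, and at 5.01, 4.96, 4.12, and 8.74 RPM in Slc29a3-/- Tlr7-/-. Every Slc29a3-/- library was below every library of the other groups. The log2 fold change was -1.12 ± 0.24 (SE, 95% interval -1.62 to -0.61, adjusted P = 0.0038) against WT and -0.73 ± 0.24 (-1.24 to -0.22, adjusted P = 0.042) against Slc29a3-/- Tlr7-/-. The second call was lost without any 1 of the 4 Slc29a3-/- libraries or Slc29a3-/- Tlr7-/- replicate 1 or 4 (adjusted P between 0.054 and 0.10). It was also lost with TMM scaling, with RLE scaling, and without a filter, and in 12 of 16 alternatives in all. The first kept its call in all alternatives with more than 1 WT library, and was -0.81 against WT replicate 4 alone. In Ly6C low, Tlr3 ranged from 3.50 to 6.97 RPM in WT, from 2.62 to 6.78 RPM in Slc29a3-/-, and from 1.42 to 10.9 RPM in Slc29a3-/- Tlr7-/-. Those groups overlapped, and no comparison in Ly6C low or between subsets passed the test.

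Tlr7 was read in every group, the Tlr7-/- ones included. Ly6C hi libraries held 263, 253, 209.8, and 336 RPM in WT, 227, 199, 181, and 111 RPM in Slc29a3-/-, and 322, 259, 345, and 343 RPM in Slc29a3-/- Tlr7-/-. Ly6C low libraries held 479, 298, 331, and 414 RPM in WT, 411, 391, 403, and 400.2 RPM in Slc29a3-/-, and 627, 542, 584, and 355 RPM in Slc29a3-/- Tlr7-/-. Transcripts of the mutated gene were thus read in all 8 Tlr7-/- libraries, and these values say nothing of the protein. In Ly6C hi, Slc29a3-/- fell below Slc29a3-/- Tlr7-/- without overlap (log2 fold change -0.85 ± 0.20, 95% interval -1.29 to -0.42, adjusted P = 0.0089). Against WT the groups overlapped and the fold change was -0.59 ± 0.20 (-1.02 to -0.16, adjusted P = 0.042). That call was lost with TMM scaling (-0.42, adjusted P = 0.097), with RLE scaling, and without WT replicate 1, 2, or 4 or Slc29a3-/- replicate 3 or 4 (adjusted P between 0.074 and 0.12). In Ly6C low, Slc29a3-/- Tlr7-/- differed from WT by 0.46 ± 0.19 (adjusted P = 0.12, and 0.64 with adjusted P = 0.032 without Slc29a3-/- Tlr7-/- replicate 4), and Slc29a3-/- from WT by 0.10 ± 0.19 (adjusted P = 0.82).

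Between subsets, Tlr7 was lower in Ly6C hi than in Ly6C low monocytes of both mutants. The log2 fold change was -1.20 ± 0.20 in Slc29a3-/- (adjusted P = 3.0e-05) and -0.71 ± 0.20 in Slc29a3-/- Tlr7-/- (adjusted P = 0.0085), both without overlap, and -0.51 ± 0.20 in WT (adjusted P = 0.058). The WT value passed with TMM scaling (-0.57, adjusted P = 0.019), with RLE scaling, without WT replicate 4 of Ly6C hi (-0.63, adjusted P = 0.027), and without WT replicate 2 of Ly6C low (-0.62, adjusted P = 0.035). It also passed with same-numbered libraries of each genotype fitted as pairs (-0.51, adjusted P = 0.048). Ly6C hi was lower in 4 of 4 WT pairs of equal number, though no source states that such libraries share a mouse. The order of the group means ran from Low Slc29a3-/- Tlr7-/- (527 RPM) through Low Slc29a3-/- (401), Low WT (381), Hi Slc29a3-/- Tlr7-/- (317), and Hi WT (265) to Hi Slc29a3-/- (179.6), and every pair of neighbours overlapped.

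Tlr8, the neighbour of Tlr7 on the X chromosome and its closest relative among the receptors, fell in Slc29a3-/- Ly6C hi monocytes when compared with Slc29a3-/- Tlr7-/-. In Ly6C hi it was 101, 98.5, 94.0, and 231 RPM in WT, 84.3, 90.1, 70.3, and 57.0 RPM in Slc29a3-/-, and 137, 135, 211, and 157 RPM in Slc29a3-/- Tlr7-/-. In Ly6C low it was 155, 163, 140.0, and 204 RPM in WT, 234, 155, 299, and 304 RPM in Slc29a3-/-, and 197, 245, 161, and 105 RPM in Slc29a3-/- Tlr7-/-. Within Ly6C hi all Slc29a3-/- libraries were below all others. Tlr8 fell against Slc29a3-/- Tlr7-/- by 1.07 ± 0.26 on the log2 scale (95% interval -1.62 to -0.52, adjusted P = 0.0095), or to 47.5% on the scale of RPM + 1, and the difference from WT, -0.70 ± 0.26, had an adjusted P of 0.055. The last value depended on WT replicate 4: it was -0.39 without that library (adjusted P = 0.12) and -1.62 against it alone (adjusted P = 0.028). In Ly6C low no comparison of Tlr8 passed the test, with 0.55 ± 0.26 for Slc29a3-/- against WT (adjusted P = 0.26). In libraries without Ddx3y reads the latter was 0.66 (adjusted P = 0.039).

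Tlr8 was lower in Ly6C hi than in Ly6C low monocytes of Slc29a3-/- mice. The log2 fold change was -1.68 ± 0.27 (95% interval -2.24 to -1.11, adjusted P = 2.0e-05), without overlap, beside -0.43 ± 0.27 in WT (adjusted P = 0.26, and -0.74 with adjusted P = 0.028 without WT replicate 4 of Ly6C hi) and -0.10 ± 0.27 in Slc29a3-/- Tlr7-/- (adjusted P = 0.81). The test of the difference itself passed in both cases: the effect of Slc29a3-/- on Tlr8 was lower in Ly6C hi than in Ly6C low by 1.25 ± 0.39 on the log2 scale relative to WT (interval -2.04 to -0.45, adjusted P = 0.044) and by 1.57 ± 0.39 relative to Slc29a3-/- Tlr7-/- (-2.37 to -0.78, adjusted P = 0.012). The second held in every alternative run, and the first was lost with TMM scaling (-1.09, adjusted P = 0.061) and without WT replicate 4 or Slc29a3-/- replicate 3 or 4 of Ly6C hi, or WT replicate 1, 2, or 3 or Slc29a3-/- replicate 1, 3, or 4 of Ly6C low (-1.26 to -0.94, adjusted P between 0.068 and 0.11).

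Tlr9, the receptor for unmethylated CpG DNA, was highest in Slc29a3-/- Tlr7-/- Ly6C hi monocytes by mean. The Ly6C hi values were 127, 126, 128, and 235 RPM in WT, 120.3, 164, 94.4, and 80.6 RPM in Slc29a3-/-, and 277, 208, 222, and 169 RPM in Slc29a3-/- Tlr7-/-. The Ly6C low values were 68.7, 74.7, 76.6, and 147 RPM in WT, 82.8, 71.0, 73.0, and 81.0 RPM in Slc29a3-/-, and 138, 95.2, 104, and 92.4 RPM in Slc29a3-/- Tlr7-/-. WT replicate 4 was far above the other WT libraries in both subsets. Tlr9 fell in Slc29a3-/- against Slc29a3-/- Tlr7-/- Ly6C hi monocytes by 0.96 ± 0.24 on the log2 scale (95% interval -1.47 to -0.44, adjusted P = 0.012), without overlap. Its differences from WT, -0.42 ± 0.24 in Slc29a3-/- (adjusted P = 0.21) and 0.54 ± 0.24 in Slc29a3-/- Tlr7-/- (adjusted P = 0.20), did not pass. Ly6C low gave -0.46 ± 0.22 for Slc29a3-/- against Slc29a3-/- Tlr7-/- (adjusted P = 0.26), with groups that did not overlap, and 0.28 ± 0.22 for Slc29a3-/- Tlr7-/- against WT (adjusted P = 0.41, and 0.53 with adjusted P = 0.029 without WT replicate 4).

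Unlike Tlr7, Tlr9 was higher in Ly6C hi than in Ly6C low monocytes, by 1.02 ± 0.24 on the log2 scale in Slc29a3-/- Tlr7-/- (adjusted P = 0.0018, no overlap) and by 0.76 ± 0.24 in WT (adjusted P = 0.019). In Slc29a3-/- it was 0.52 ± 0.24 (adjusted P = 0.086), which passed with TMM scaling (0.62, adjusted P = 0.024), with RLE scaling, and without Slc29a3-/- replicate 4 of Ly6C hi (0.67, adjusted P = 0.040). The WT call was lost without WT replicate 4 of Ly6C hi (adjusted P = 0.095) or WT replicate 1, 2, or 3 of Ly6C low (adjusted P between 0.056 and 0.071).

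Tlr13, a mouse receptor for bacterial ribosomal RNA, varied widely within groups. Its Ly6C hi levels were 47.1, 44.8, 45.5, and 142 RPM in WT, 95.9, 134, 82.1, and 50.9 RPM in Slc29a3-/-, and 146, 68.0, 174, and 94.1 RPM in Slc29a3-/- Tlr7-/-. Its Ly6C low levels were 107, 86.5, 74.5, and 296 RPM in WT, 257, 250.3, 226, and 237 RPM in Slc29a3-/-, and 238, 263, 97.9, and 55.6 RPM in Slc29a3-/- Tlr7-/-. WT replicate 4 was 3.10 times the mean of the other WT libraries in Ly6C hi and 3.31 times in Ly6C low. No genotype comparison of Tlr13 passed the test, with 0.49 ± 0.39 in Ly6C hi (adjusted P = 0.37) and 1.01 ± 0.46 in Ly6C low (adjusted P = 0.24) for Slc29a3-/- against WT. Without WT replicate 4 of Ly6C low the latter was 1.44 (adjusted P = 0.036), and in libraries without Ddx3y reads it was 1.42 (adjusted P = 4.8e-05). In Ly6C hi, libraries without Ddx3y reads gave 0.84 (adjusted P = 0.039) and the comparison without WT replicate 4 gave 0.89 (adjusted P = 0.049), while WT replicate 4 alone gave -0.72. Both selections leave WT replicates 1 to 3 alone as WT, so barcode range and genotype cannot be told apart in them. Within Slc29a3-/- mice, Tlr13 was lower in Ly6C hi than in Ly6C low by 1.49 ± 0.46 (interval -2.44 to -0.53, adjusted P = 0.012), without overlap, and without Slc29a3-/- replicate 4 of Ly6C hi the adjusted P was 0.053. In WT the difference was -0.96 ± 0.46 (adjusted P = 0.13), and -1.37 without WT replicate 4 of Ly6C hi (adjusted P = 0.027). With same-numbered libraries of each genotype fitted as pairs, -0.96 passed (adjusted P = 0.042). Ly6C hi was lower in 4 of 4 WT pairs of equal number, though no source states that such libraries share a mouse.

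Unc93b1, the escort of the nucleic acid-sensing TLRs, fell in Slc29a3-/- Ly6C hi monocytes. It was read at 1526, 1530.5, 1363, and 2000.1 RPM in WT, 1146, 944, 1047, and 914 RPM in Slc29a3-/-, and 1466, 1057, 1813, and 1531 RPM in Slc29a3-/- Tlr7-/-. Slc29a3-/- was below WT in all libraries and overlapped Slc29a3-/- Tlr7-/-. The log2 fold change was -0.65 ± 0.17 against WT (95% interval -1.02 to -0.29, adjusted P = 0.012), a level of 63.5%, and it passed in all alternatives but WT replicate 4 alone (-0.99, adjusted P = 0.11). Against Slc29a3-/- Tlr7-/- it was -0.51 ± 0.17 (-0.88 to -0.14, adjusted P = 0.049), a call lost in 14 of 17 alternatives, among them the leaving out of any 1 Slc29a3-/- library or of Slc29a3-/- Tlr7-/- replicate 1, 3, or 4 (adjusted P between 0.053 and 0.14). In Ly6C low Unc93b1 was 880.2, 731, 839, and 1369 RPM in WT, 938, 885, 1214, and 1179 RPM in Slc29a3-/-, and 1063, 1088, 773, and 436 RPM in Slc29a3-/- Tlr7-/-. These overlapped, and no genotype comparison there passed the test in all libraries. In libraries without Ddx3y reads, with WT replicates 1 to 3 alone as WT, Slc29a3-/- was above WT by 0.41 (adjusted P = 0.036). In all libraries the difference was 0.17 (adjusted P = 0.78).

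Like Tlr9, Unc93b1 was higher in Ly6C hi than in Ly6C low monocytes of WT (0.78 ± 0.24, adjusted P = 0.015) and Slc29a3-/- Tlr7-/- mice (0.87 ± 0.24, adjusted P = 0.0063). In Slc29a3-/- mice the difference was -0.05 ± 0.24 (interval -0.54 to 0.44, adjusted P = 0.89). The difference between subsets in the effect of Slc29a3-/- was -0.83 ± 0.34 relative to WT (adjusted P = 0.13) and -0.91 ± 0.34 relative to Slc29a3-/- Tlr7-/- (adjusted P = 0.089). The first passed without WT replicate 4 of Ly6C low (-1.01, adjusted P = 0.045), and the second without Slc29a3-/- Tlr7-/- replicate 2 of Ly6C hi or replicate 1 or 2 of Ly6C low (-1.07 to -1.06, adjusted P between 0.042 and 0.046). The WT call was lost without WT replicate 4 of Ly6C hi (adjusted P = 0.052) or WT replicate 2 of Ly6C low (adjusted P = 0.059).

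Cnpy3, the folding partner, rose in both mutants in Ly6C low monocytes. Ly6C hi libraries held 80.9, 81.8, 91.9, and 99.4 RPM in WT, 79.4, 95.2, 78.9, and 69.2 RPM in Slc29a3-/-, and 107, 125, 138, and 90.8 RPM in Slc29a3-/- Tlr7-/-. Ly6C low libraries held 97.1, 94.6, 88.5, and 84.5 RPM in WT, 121, 152, 122, and 136 RPM in Slc29a3-/-, and 144, 136, 130.4, and 108 RPM in Slc29a3-/- Tlr7-/-. All mutant libraries of Ly6C low were above all WT libraries. Cnpy3 rose there by 0.54 ± 0.14 on the log2 scale in Slc29a3-/- (adjusted P = 0.038) and by 0.50 ± 0.14 in Slc29a3-/- Tlr7-/- (adjusted P = 0.040). In Ly6C hi it fell in Slc29a3-/- against Slc29a3-/- Tlr7-/- by 0.50 ± 0.15 (adjusted P = 0.029) and gave -0.14 ± 0.15 against WT (adjusted P = 0.53), which was 0.03 with TMM scaling. The subsets differed in the effect of Slc29a3-/- relative to WT, by -0.67 ± 0.19 (adjusted P = 0.030), a call lost with TMM scaling (-0.51, adjusted P = 0.099) and without WT replicate 3 or 4, or Slc29a3-/- replicate 3 or 4, of Ly6C hi, or WT replicate 3, or Slc29a3-/- replicate 2 or 4, of Ly6C low (adjusted P between 0.054 and 0.073).

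The Cnpy3 calls between genotypes leaned on single libraries and on the processing. Both Ly6C low calls were lost without the intensity trend and with the replicate number as a block. The Ly6C hi call was lost with TMM scaling, with RLE scaling, and with only the 2 groups fitted. In Ly6C low the call for Slc29a3-/- was lost without WT replicate 1, 2, or 3 or any 1 Slc29a3-/- library (adjusted P between 0.074 and 0.14), and that for Slc29a3-/- Tlr7-/- without WT replicate 1, 2, or 3 or Slc29a3-/- Tlr7-/- replicate 1 or 3 (adjusted P between 0.057 and 0.11). In Ly6C hi the call was lost without Slc29a3-/- replicate 1, 3, or 4 or Slc29a3-/- Tlr7-/- replicate 2 or 3 (adjusted P between 0.058 and 0.087). The difference of Cnpy3 between subsets within Slc29a3-/- mice held in all 16 alternatives, at -0.72 ± 0.14 (adjusted P = 1.5e-04). Relative to Slc29a3-/- Tlr7-/-, the difference between subsets in the effect on Cnpy3 was -0.54 ± 0.19 (adjusted P = 0.084), and it passed without Slc29a3-/- replicate 2 (-0.62, adjusted P = 0.047) or Slc29a3-/- Tlr7-/- replicate 4 of Ly6C hi (-0.65, adjusted P = 0.034).

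Slc15a3, an endolysosomal transporter of histidine and small peptides, was lower in Slc29a3-/- than in Slc29a3-/- Tlr7-/- in Ly6C hi monocytes and higher than in WT in Ly6C low. In Ly6C hi it was 63.2, 73.7, 83.0, and 119 RPM in WT, 75.4, 75.6, 71.1, and 49.5 RPM in Slc29a3-/-, and 91.9, 166, 121, and 88.8 RPM in Slc29a3-/- Tlr7-/-. In Ly6C low it was 98.9, 85.0, 91.3, and 72.3 RPM in WT, 155, 138, 151, and 158 RPM in Slc29a3-/-, and 80.0, 97.7, 130.1, and 154 RPM in Slc29a3-/- Tlr7-/-. Slc29a3-/- was thus below Slc29a3-/- Tlr7-/- without overlap in Ly6C hi and above WT without overlap in Ly6C low. The fall in Ly6C hi was by 0.75 ± 0.23 on the log2 scale (adjusted P = 0.031), lost without Slc29a3-/- replicate 3 or 4 or Slc29a3-/- Tlr7-/- replicate 2 or 3 (adjusted P between 0.055 and 0.11). That call was also lost with TMM scaling and without a filter. Against WT the Ly6C hi groups overlapped, and the difference was -0.30 ± 0.23 (interval -0.78 to 0.19, adjusted P = 0.35), or -0.13 with TMM scaling. The rise in Ly6C low was by 0.80 ± 0.19 (interval 0.40 to 1.20, adjusted P = 0.026), lost without WT replicate 2 or 3 or any 1 Slc29a3-/- library (adjusted P between 0.065 and 0.089). Within Slc29a3-/- mice Ly6C hi was lower than Ly6C low by 1.16 ± 0.22 (adjusted P = 1.0e-04), which held in all 16 alternatives, beside -0.07 ± 0.22 in WT (adjusted P = 0.86) and 0.02 ± 0.22 in Slc29a3-/- Tlr7-/- (adjusted P = 0.97). The subsets differed in the effect of Slc29a3-/- by -1.09 ± 0.30 relative to WT (adjusted P = 0.025) and by -1.17 ± 0.30 relative to Slc29a3-/- Tlr7-/- (adjusted P = 0.017). With TMM scaling these were -0.93 (adjusted P = 0.064) and -0.97 (adjusted P = 0.054), and without Slc29a3-/- replicate 4 of Ly6C hi -0.95 (adjusted P = 0.068) and -1.03 (adjusted P = 0.050). Without WT replicate 4 of Ly6C hi the first was -0.92 (adjusted P = 0.054).

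Slc15a4, its relative that TLR7 and TLR9 signalling requires in plasmacytoid dendritic cells, differed between subsets. The Ly6C hi values were 104, 112, 117, and 125 RPM in WT, 161, 138, 122, and 71.2 RPM in Slc29a3-/-, and 134, 133, 151, and 204 RPM in Slc29a3-/- Tlr7-/-. The Ly6C low values were 217, 168, 167, and 215 RPM in WT, 256, 265, 257, and 212 RPM in Slc29a3-/-, and 194, 224, 229, and 298 RPM in Slc29a3-/- Tlr7-/-. Slc15a4 was lower in Ly6C hi in each genotype, by 0.73 ± 0.19 on the log2 scale in WT (adjusted P = 0.0052), by 1.06 ± 0.19 in Slc29a3-/- (adjusted P = 8.0e-05), and by 0.61 ± 0.19 in Slc29a3-/- Tlr7-/- (adjusted P = 0.017). The last call was lost without Slc29a3-/- Tlr7-/- replicate 1 of Ly6C hi or replicate 4 of Ly6C low (adjusted P of 0.054 and 0.064). No genotype comparison of Slc15a4 passed, the closest being 0.37 ± 0.16 for Slc29a3-/- against WT in Ly6C low (adjusted P = 0.20, and 0.41 with adjusted P = 0.032 in libraries without Ddx3y reads).

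In Ly6C low monocytes, then, 2 members were called between Slc29a3-/- and WT, Cnpy3 and Slc15a3, both higher, where 4.64% of the 10317 genes tested were called and 2.02% were higher. Between Slc29a3-/- Tlr7-/- and WT, Cnpy3 alone was called and was higher, where 8.87% of all genes were called and 2.50% were higher, and under the study's thresholds none was, where 20.7% of all genes were. Between Slc29a3-/- and Slc29a3-/- Tlr7-/-, limma called none of the 9, where 1.93% of all genes were called, and 1 member, Slc15a3, had an unadjusted P under 0.05 (0.43 ± 0.19). In libraries without Ddx3y reads, 6 members were higher in Slc29a3-/- than in WT, but WT was then replicates 1 to 3 alone. Of the 9923 genes tested there, 20.8% were higher too, with 34.5% called in all. Genes listed as markers of other cells also differed in this subset. The 4 erythroid genes with an amplicon, of 6 listed, summed to 63.0 to 84.8 RPM in Slc29a3-/- against 1.12 to 5.59 RPM in WT and 1.78 to 9.87 RPM in Slc29a3-/- Tlr7-/-. Neutrophil genes (8 of 8) summed to 37.3 to 1224 RPM in WT, 24.8 to 106 RPM in Slc29a3-/-, and 5.32 to 43.9 RPM in Slc29a3-/- Tlr7-/-, with 1 gene at 0 in all 4 libraries of the last group. The 7 conventional dendritic cell genes summed to 28.0 to 53.9 RPM in Slc29a3-/-, below the 58.8 to 131 RPM of WT and the 77.7 to 126 RPM of Slc29a3-/- Tlr7-/-, and of 6 tested, 3 and 5 were called lower. B cell genes (6 of 7) summed to 79.9 to 129.7 RPM in Slc29a3-/-, 133 to 154 RPM in WT, and 201 to 249.9 RPM in Slc29a3-/- Tlr7-/-. T and NK cell genes (6 of 6) summed to 10.7 to 31.6, 26.1 to 96.4, and 1.99 to 22.5 RPM in the same order, and progenitor genes (5 of 5) to 2.94 to 15.7, 3.60 to 57.2, and 0.162 to 1.75 RPM. Red pulp macrophage genes (5 of 5) summed to 541 to 846 RPM in Slc29a3-/-, 439 to 512 RPM in WT, and 251 to 1528 RPM in Slc29a3-/- Tlr7-/-. Hmox1 made up most of this sum, with a mean of 467 of 710.0 RPM in Slc29a3-/- and 609 of 701 RPM in Slc29a3-/- Tlr7-/-. Of the 5 genes, 1 was called higher in Slc29a3-/- than in WT, where 2.02% of all genes were, and 0 lower. Against Slc29a3-/- Tlr7-/-, 2 were called higher and 0 lower, where 1.93% of all genes were called. The part of these genes in the Ly6C low results was not tested.

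Between the subsets, 6 of 9 members were lower in Ly6C hi than in Ly6C low monocytes of Slc29a3-/- mice and none was higher, where 41.2% of 11042 genes were called and 22.1% were lower. They were Tlr7, Tlr8, Tlr13, Cnpy3, Slc15a3, and Slc15a4, and all 6 were without overlap, as were 27.3% of all genes in that direction. In WT 3 members were called, Tlr9 and Unc93b1 higher in Ly6C hi and Slc15a4 lower, where 29.6% of all genes were called, 19.1% higher and 10.5% lower. With same-numbered libraries of each genotype fitted as pairs, 5 were called in WT, Tlr7 and Tlr13 lower as well, where the share over all genes was again 29.6%. In Slc29a3-/- Tlr7-/- 4 were called, Tlr9 and Unc93b1 higher and Tlr7 and Slc15a4 lower, where 33.3% of all genes were called, 21.4% higher and 11.8% lower. The difference between subsets in a genotype effect was called for 3 members relative to WT (Tlr8, Cnpy3, and Slc15a3, all below 0, where 8.85% of all genes were called and 4.72% were below 0), and for 2 between Slc29a3-/- and Slc29a3-/- Tlr7-/- (Tlr8 and Slc15a3, both below 0, where 8.97% of all genes were called and 4.44% were below 0). Between Slc29a3-/- Tlr7-/- and WT it was called for none, and no member had an unadjusted P under 0.05, where 0.0634% of all genes were called. The neutrophil and Ly6C marker sums given above also differed between the sorted subsets, and their part was not tested.

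**Figure D4:**
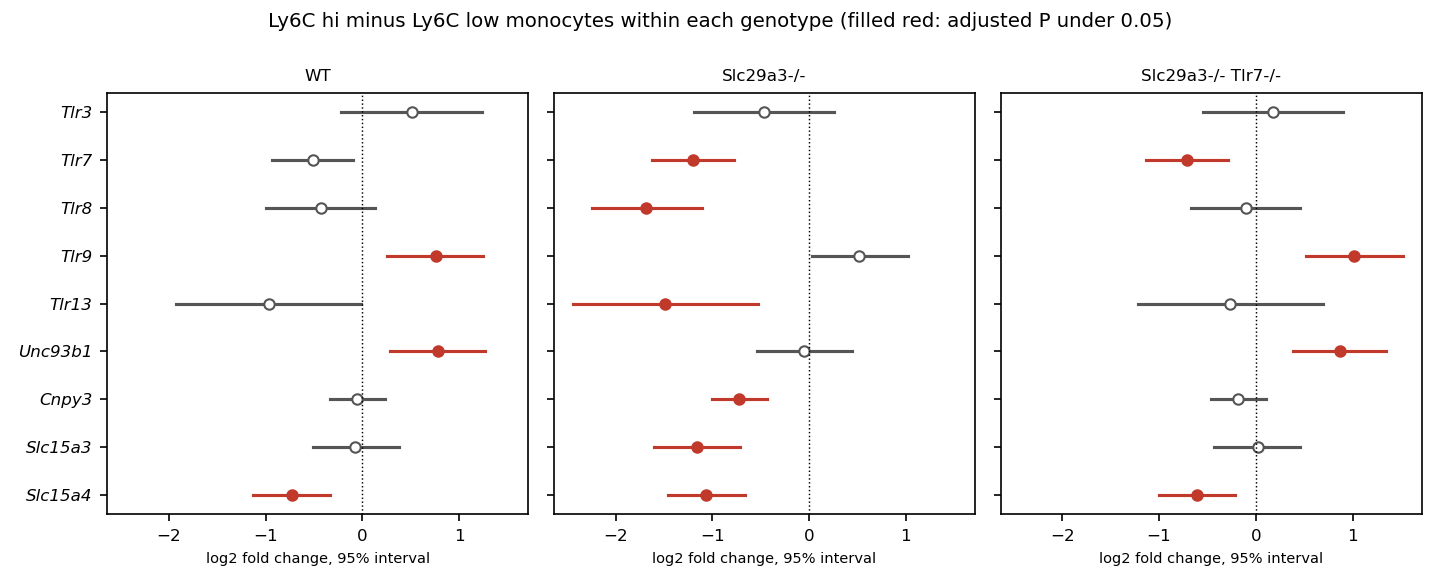
Log2 fold changes of the 9 members in Ly6C hi against Ly6C low monocytes within each genotype, with 95% intervals. Filled red points passed an adjusted P of 0.05: Tlr9 and Unc93b1 lie to the right in WT and Slc29a3-/- Tlr7-/-, and 6 members lie to the left in Slc29a3-/-.

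Other genes of the pathway gave context. Of 22 tested genes of signalling from endosomal TLRs, 5 fell in Slc29a3-/- Ly6C hi monocytes relative to Slc29a3-/- Tlr7-/- and none rose, where 10.3% of all genes were lower, and the median was -0.20 beside -0.12 over all genes. Irf8, a transcription factor of monocyte and dendritic cell development, was 179 to 323 RPM in Slc29a3-/-, 355 to 566 RPM in Slc29a3-/- Tlr7-/-, and 582 to 677 RPM in WT. Its log2 fold change was -0.99 ± 0.18 against Slc29a3-/- Tlr7-/- (adjusted P = 0.0014) and -1.43 ± 0.18 against WT (adjusted P = 1.6e-04). Irf7, which drives type I interferon genes, gave -0.89 ± 0.24 against Slc29a3-/- Tlr7-/- (adjusted P = 0.016). Against WT, 6 of the 22 were lower and none higher, where 17.8% of all genes were lower, and the median of -0.17 lay close to the -0.14 of all genes. Among the 6 was Irf5, which acts downstream of Myd88 (-0.95 ± 0.24, adjusted P = 0.0088).

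Among 6 tested proteases that process TLRs, 3 fell in Slc29a3-/- Ly6C hi monocytes relative to Slc29a3-/- Tlr7-/-, where 10.3% of all genes were lower. Ctss was 794 to 1768 RPM in Slc29a3-/- and 2149.6 to 2711 RPM in Slc29a3-/- Tlr7-/- (-0.97 ± 0.20, adjusted P = 0.0045). Ctsl was 31.4 to 44.5 RPM in Slc29a3-/- and 54.3 to 112 RPM in Slc29a3-/- Tlr7-/- (-0.99 ± 0.19, adjusted P = 0.0025), and it also fell against WT (-1.18 ± 0.19, adjusted P = 7.9e-04). Of 12 trafficking and folding partners tested, 3 were called between Slc29a3-/- and WT in Ly6C hi, a share close to the 27.9% of all genes. Of these 3, Cnpy4, a relative of Cnpy3, was higher (0.47 ± 0.12, adjusted P = 0.011) and Rab7b, a GTPase of late endosomes, was lower (-1.09 ± 0.24, adjusted P = 0.0049).

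Of 9 brakes on TLR signalling tested, 3 were lower in Slc29a3-/- than in WT Ly6C hi monocytes, where 17.8% of all genes were, with Tnfaip3, which limits NF-κB activity, at -2.95 ± 0.62 (adjusted P = 0.0037). Tnfaip3 was 15.8 to 28.1 RPM in Slc29a3-/-, 8.45 to 56.9 RPM in Slc29a3-/- Tlr7-/-, and 37.6 to 342 RPM in WT. The WT libraries thus varied widely, with an SD of 133 RPM around a mean of 232 RPM. In Ly6C low, 2 of the 9 were higher in Slc29a3-/- than in WT, Irak3 (0.68 ± 0.15, adjusted P = 0.020) and Tnip1 (0.51 ± 0.12, adjusted P = 0.025), where 2.02% of all genes were higher. Of the 5 surface receptors, 3 fell in Slc29a3-/- Ly6C hi monocytes relative to Slc29a3-/- Tlr7-/-, beside 4 of the 5 endosomal ones and 10.3% of all genes. Tlr5, the flagellin receptor, was 3.96 to 6.37 RPM in Slc29a3-/- and 8.18 to 21.8 RPM in Slc29a3-/- Tlr7-/- (-1.07 ± 0.27, adjusted P = 0.012). Tlr2, which binds bacterial lipoproteins, gave -0.79 ± 0.21 (adjusted P = 0.016).

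Patterns over the 24 libraries were set beside those of 7491 other genes with a mean of at least 10 RPM, by the root mean square difference of centred log2(RPM + 1). The libraries share their groups, so this is a description. Nearest to Tlr7 were Cd300a (0.24), Itga4 (0.25), and Notch2 (0.26), while Tlr8 ranked 192 among its neighbours (0.38). Nearest to Tlr8 were Gm5150 (0.30), Pla2g7 (0.30), and Prkab2 (0.34), and Tlr7 ranked 23. Tlr9 was nearest to Ly86 (0.29), Capn2 (0.29), and Pgap1 (0.30), and among members Unc93b1 was its closest, at rank 304 (0.47). Tlr13 was nearest to Cx3cr1 (0.41), Clec4a3 (0.45), and Golga1 (0.46). Tlr3, near the lower end of measurement, was nearest to Slc22a5 (0.37), Dhps (0.44), and Wdr75 (0.44). Tlr9 lay 0.85 from Tlr7 and 0.87 from Tlr8.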

How the data were processed

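Libraries were made with an Ion AmpliSeq mouse kit that reads 1 amplicon per gene from 1 ng of RNA of RIN above 7.3. The authors deposited 1 table of RPM (reads scaled to a library total of 1000000) for 23930 amplicons and 24 libraries on mm10, and which of their processing steps wrote it was not given in the sources used here. Values of 0.0001 were read as 0, and 27 gene symbols turned into dates were restored. Depth was inferred from the step between low values, and no count test was run.

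Genes that reached 1 RPM in 4 or more libraries of a fit were tested on log2(RPM + 1) with limma 3.58.1 (intensity trend, R 4.3.3), for each subset alone and over both subsets for Ly6C hi against low and for differences between subsets. P values were two-sided and Benjamini-Hochberg adjusted over all genes tested, and called means under 0.05. Fold changes understate those of low genes. The fit was tested on simulated data. Replicate numbers have no stated source. Deviations of same-numbered Ly6C hi and low libraries from their group means correlated at 0.259 to 0.619 in all 4 WT pairs (over 0.1). They correlated at -0.081 to 0.255 in Slc29a3-/- and at -0.456 to 0.338 in Slc29a3-/- Tlr7-/-. The paired fit blocked the numbers of every genotype, so its P values for WT also rest on the mutant pairs. WT replicates 2 and 3 correlated more with another number (0.3 and 0.323 at most), and replicate 1 nearly as much (0.269 beside 0.321). Only replicate 4 stood apart (0.619, and at most -0.348 with another number). The limit of 0.1 therefore cannot show that WT replicates 1 to 3 are pairs. The members and lists were chosen with earlier results of these data known. Named genes were the 9 members, Slc29a3, the 3 genes nearest to each receptor, and, of each list and comparison, up to 2 genes in each direction with the largest change among those called without overlap.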

Additional observations from a re-analysis of the deposited data

Results flagged for a closer look

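In each group of 4 libraries, the gap of the highest or lowest library to its nearest neighbour was divided by the range of the group and compared with Dixon's 95% critical value. Of 54 groups, 6 passed, where chance gives about 1 in 20, and 5 of the 6 were WT replicate 4. Tlr8 in WT Ly6C hi (231 RPM) gave 0.947. Tlr9 gave 0.986 in WT Ly6C hi (235 RPM) and 0.899 in WT Ly6C low (147 RPM). Tlr13 gave 0.976 in WT Ly6C hi (142 RPM) and 0.853 in WT Ly6C low (296 RPM). The remaining one was Slc15a4 in Slc29a3-/- Ly6C low, where replicate 4 was lowest (212 RPM), at 0.82904, just past the critical value. WT replicate 4 also differed from the other WT libraries in barcode range, in depth, and in its Ddx3y reads, and which of these goes with its values cannot be told apart.

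The effect of genotype differed between Ly6C hi and Ly6C low monocytes in 5 of 27 tests (limma, adjusted P under 0.05). Over all genes, the share called was 8.85% for Slc29a3-/- against WT, 8.97% for Slc29a3-/- against Slc29a3-/- Tlr7-/-, and 0.0634% for Slc29a3-/- Tlr7-/- against WT. For Slc29a3-/- against WT, the fold change of Ly6C hi less that of Ly6C low was -1.25 on the log2 scale for Tlr8, -0.67 for Cnpy3, and -1.09 for Slc15a3. For Slc29a3-/- against Slc29a3-/- Tlr7-/- it was -1.57 for Tlr8 and -1.17 for Slc15a3. Relative to WT, the call was lost in 15 of 24 alternatives for Tlr8, in 10 for Cnpy3, and in 6 for Slc15a3. Relative to Slc29a3-/- Tlr7-/-, it was lost in 3 of 23 for Slc15a3 and in none for Tlr8. Neutrophil and progenitor genes also differed between genotypes in Ly6C hi, and their part in these differences was not tested.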

How the results depend on the processing

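Of the values of single members under alternatives, 1804 kept their direction and side of the threshold, 128 lost a call, 32 gained one, and 76 moved without a call, and none reversed a called direction. Tlr7, Tlr8, and Tlr9 in Slc29a3-/- against Slc29a3-/- Tlr7-/- Ly6C hi monocytes kept their call under every alternative run, none of which left out all libraries with Ddx3y reads. The number of members called in that comparison, 7, was 3 with TMM scaling, 4 with RLE scaling, 4 without a filter, 4 with only the 2 groups fitted, and 3 to 5 with 1 library left out. Against WT in Ly6C hi, 3 became 1 with WT replicate 4 alone as WT, which was assumed to vary like the other groups. For Slc29a3-/- Tlr7-/- against WT in Ly6C hi, 0 became 1 under the study's thresholds (fold over 1.5, unadjusted P under 0.05) and was 0 to 3 with 1 library left out, 3 being without WT replicate 4. For Slc29a3-/- against WT in Ly6C low, 2 became 1 without the intensity trend, 0 with WT replicate 4 alone, 6 in libraries without Ddx3y reads (an alternative chosen after seeing the data), and 0 to 3 with 1 library left out. For Slc29a3-/- Tlr7-/- against WT in Ly6C low, 1 became 0 without the trend, with only the 2 groups, with WT replicate 4 alone, and under the study's thresholds, and 0 to 2 with 1 library left out. In WT Ly6C hi against low, 3 became 0 with WT replicate 4 alone. The cause of these changes was not tested, except that fewer libraries entered some fits.

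With the replicate number of each genotype as a block, 5 members were called in WT Ly6C hi against low, with Tlr7 and Tlr13 added. Tlr9 was added in Slc29a3-/- (0.52, adjusted P = 0.014), where not all numbers paired, and the same pairs entered the spread used for WT. Across genotypes the numbers share no stated mouse or day, and the lowest correlation of same-numbered libraries was -0.187, so they were not taken as pairs, and the block gave 0 for both mutants against WT in Ly6C low. Planned count tests with edgeR and DESeq2 were not run. In each library every value above 0 and below 5 RPM was a whole multiple of 1 step, within 0.1 read, but the deposited columns write 0 as 0.0001 and as they stand did not pass the check for recovered reads that such tests required. Depth limits Tlr3 most, at 1.42 to 10.9 RPM.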
